A study of Mus musculus with 2 samples.

Results

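The regions described here are the H3K36me2 peaks of mouse colon that lay within 1 kb of a transcription start site (TSS). They were taken from the authors' own annotation, as every peak whose genomic feature was the promoter class of up to 1 kb, and numbered 4643 of 19976 peaks in the Nsd2 fl/fl library and 4357 of 23518 peaks in the Nsd2 ΔIE library. Most covered the TSS itself, at a distance of 0 bp, which held for 3486 and 2877 of them. The other 1157 and 1480 peaks stopped short of the TSS, between 1 bp and 1000 bp to one side of it, and are called peaks beside a TSS below.

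The study asked what loss of NSD2 from the intestinal epithelium does in mice fed a high-fat, high-cholesterol diet (HFCD). H3K36me2 was mapped by CUT&Tag, in which an antibody tethers the transposase Tn5 to the mark so that nearby DNA is cut and sequenced. The control group, Nsd2 fl/fl, carries Nsd2 alleles flanked by loxP sites, and its library is called the control below. The other group, Nsd2 ΔIE, carries the same alleles and a Cre recombinase under the Villin promoter, which is active in the epithelium of the intestine. Both were male littermates on a C57BL/6J background, 7 to 8 weeks old at the start, and both received HFCD, with 18 weeks of diet stated in the methods and 16 in the design text. Each genotype is represented by 1 library of whole colon tissue, the number of animals behind a library is not stated, and the tissue holds immune, stromal and muscle cells in which Villin-Cre is not active. Fewer cells of a type and less of the mark per cell therefore cannot be told apart. With 1 library per genotype no difference between the genotypes has a replicate check, no test was made, and the intervals below are 95% Wilson intervals that cover only the counting of peaks.

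H3K36me2 is laid down by NSD1, NSD2, NSD3 and ASH1L, is removed by the demethylases KDM2A and KDM2B, and is bound by the DNA methyltransferase DNMT3A. It typically covers broad stretches of intergenic DNA and of gene bodies. Promoters rich in CpG dinucleotides are usually poor in it, and the KDM2 demethylases carry a zinc finger domain that binds unmethylated CpG. A peak near a TSS may thus be a place where a broad mark reaches a promoter or ends next to one.

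The targeted gene, Nsd2, had no listed peak in the control. In Nsd2 ΔIE, 1 peak of 3766 bp covered its TSS (chromosome 5, 33973260 to 33977025, in the coordinates of the lists), with a signal of 4.79 per bp and rank 18061 of 23518 by summed signal. The mark is not a measure of transcript or protein, and the deletion was not checked by it. The tissue label could be checked only loosely. Vil1, which encodes the epithelial protein villin, had one of the strongest peaks of each list over its TSS. Its signal per bp was outlying, at 10.6 and 12.2 times the median of the control and Nsd2 ΔIE lists. Whether all of it comes from the mark cannot be told, so Vil1 is not read as a check of the tissue. Of 16 colon epithelial markers only 3 had a peak within 1 kb of a TSS in each library, against 2 and 1 of 15 immune and 4 and 2 of 16 stromal markers. The same held for 12.8% of all protein-coding genes of the RefSeq table in the control and 11.6% in Nsd2 ΔIE. Epcam, Cdh1, Krt8, Krt18 and Lgr5 were not among them, and a mark of this kind does not name a cell type by itself.

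Promoter sequences of 7 genes are shown because the peaks over a TSS and the peaks beside one differed in the CpG content of the promoters they met (values further on). Each is the 250 bases before the gene's start, 5′ to 3′ on the gene's strand, from RefSeq on GRCm38.p6, which is not the build of the peak lists. CG dinucleotides, which read the same on both strands, are in capitals. These genes were chosen from the named ones because the transcript to which their peak was annotated had the same length as the gene in the RefSeq table, so that both are likely to mean the same start. Of 14 such genes, these 7 were picked after their values were seen, to show low and high CpG content under and beside peaks, and their number in each kind carries no weight.
Vil1 (chr1:74409134-74409383, plus strand): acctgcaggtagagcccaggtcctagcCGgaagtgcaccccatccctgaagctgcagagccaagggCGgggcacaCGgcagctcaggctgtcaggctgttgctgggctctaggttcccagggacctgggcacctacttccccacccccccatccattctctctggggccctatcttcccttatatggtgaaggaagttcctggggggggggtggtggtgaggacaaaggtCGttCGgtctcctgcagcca
Cldn4 (chr5:134946935-134947184, minus strand): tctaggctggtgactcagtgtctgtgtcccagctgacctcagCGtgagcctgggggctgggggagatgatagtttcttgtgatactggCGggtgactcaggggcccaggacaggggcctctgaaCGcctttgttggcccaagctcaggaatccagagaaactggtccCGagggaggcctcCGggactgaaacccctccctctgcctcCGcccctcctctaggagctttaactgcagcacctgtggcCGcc
Cldn15 (chr5:136967619-136967868, plus strand): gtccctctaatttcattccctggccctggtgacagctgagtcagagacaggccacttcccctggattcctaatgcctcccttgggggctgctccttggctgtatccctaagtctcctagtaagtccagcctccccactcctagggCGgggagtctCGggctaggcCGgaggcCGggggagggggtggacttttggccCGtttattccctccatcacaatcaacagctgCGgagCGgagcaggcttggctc
Ascl2 (chr7:142969265-142969514, minus strand): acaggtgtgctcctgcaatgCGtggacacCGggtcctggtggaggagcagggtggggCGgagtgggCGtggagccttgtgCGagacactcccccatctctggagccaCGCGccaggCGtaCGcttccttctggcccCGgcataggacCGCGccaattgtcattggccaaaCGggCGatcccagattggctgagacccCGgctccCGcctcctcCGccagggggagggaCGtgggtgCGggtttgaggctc
Trmt61a (chr12:111677855-111678104, plus strand): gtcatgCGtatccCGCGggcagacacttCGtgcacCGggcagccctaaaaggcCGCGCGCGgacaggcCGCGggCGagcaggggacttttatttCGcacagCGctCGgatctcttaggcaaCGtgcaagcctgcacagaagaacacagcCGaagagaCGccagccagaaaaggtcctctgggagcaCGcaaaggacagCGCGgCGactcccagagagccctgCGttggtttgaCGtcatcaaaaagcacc
Wfs1 (chr5:36988983-36989232, minus strand): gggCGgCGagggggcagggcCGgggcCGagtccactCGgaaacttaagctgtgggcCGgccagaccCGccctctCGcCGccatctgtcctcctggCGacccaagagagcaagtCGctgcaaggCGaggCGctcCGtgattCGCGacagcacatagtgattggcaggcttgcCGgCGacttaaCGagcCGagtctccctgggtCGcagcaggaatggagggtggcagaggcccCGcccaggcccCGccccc
Cldn1 (chr16:26371840-26372089, minus strand): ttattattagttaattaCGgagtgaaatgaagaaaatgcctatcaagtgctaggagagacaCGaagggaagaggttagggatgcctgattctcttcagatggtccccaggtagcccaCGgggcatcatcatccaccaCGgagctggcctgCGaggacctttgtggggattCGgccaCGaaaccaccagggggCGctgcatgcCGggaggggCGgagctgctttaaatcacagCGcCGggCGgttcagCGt

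The promoters of Vil1, Cldn4 and Cldn15 held 5, 7 and 7 CG dinucleotides in these 250 bases. All 3 lay under a peak in at least 1 library. Ascl2, a transcription factor of intestinal stem cells, had 19 and Trmt61a, a tRNA methyltransferase subunit, had 24, and both lay under a peak in both libraries. Wfs1, a protein of the ER membrane, had 23 and Cldn1, a claudin of tight junctions, had 14. Peaks stopped beside these TSSs, at 19 bp from that of Wfs1 in the control and at 32 bp from that of Cldn1 in Nsd2 ΔIE. The Wfs1 TSS was covered in Nsd2 ΔIE, by a peak of 17626 bp. Over all 22862 genes with a single promoter entry the median was 5, and 91.1% of the promoters held at least 1 CG.

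Peaks over a TSS took up a larger share of the control list. In the control they were 17.5% of all peaks (16.9% to 17.98%) and in Nsd2 ΔIE 12.2% (11.8% to 12.7%). Peaks beside a TSS differed less and in the other direction, with 5.79% (5.48% to 6.12%) in the control and 6.29% (5.99% to 6.61%) in Nsd2 ΔIE. Within the class, 75.1% of the control peaks and 66.0% of the Nsd2 ΔIE peaks therefore covered the TSS. The share over a TSS was higher in the control on 19 of 19 autosomes. The gap was widest on chromosome 19, with 21.6% against 11.9%, and on chromosome 8, with 19.3% against 11.2%, and narrow on chromosome 14, with 13.8% against 13.0%. Outside the autosomes there was little to compare, since the X chromosome held 1 peak in the control and 5 in Nsd2 ΔIE.

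**Figure D1:**
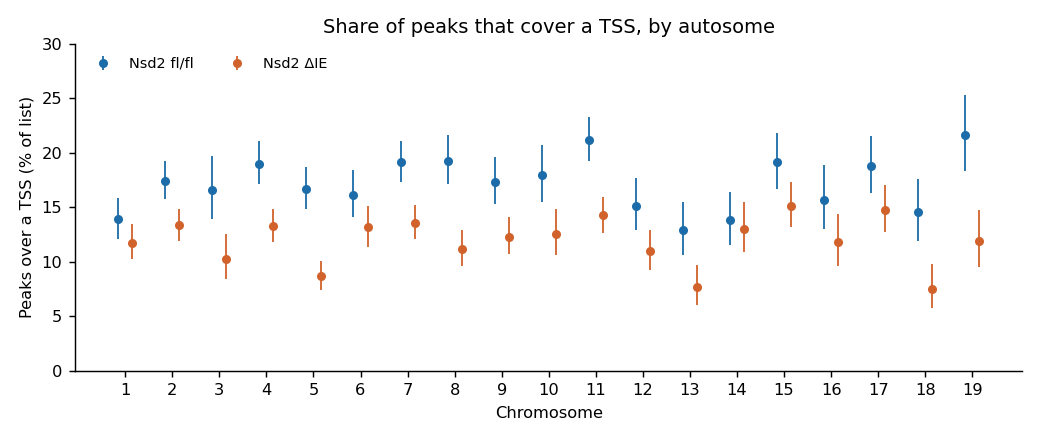
Share of all peaks of a list that covered a TSS (%, y axis) on each autosome (x axis), as points with 95% Wilson intervals, for the 1 library of each genotype. The Nsd2 fl/fl point lies above the Nsd2 ΔIE point on 19 of 19 autosomes, by the least on chromosome 14 (13.8% and 13.0%).

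The share over a TSS rose with peak width, and the control list had the wider peaks. From peaks of up to 3 kb to peaks over 10 kb, the share over a TSS rose from 9.85% to 42.0% in the control and from 8.60% to 38.0% in Nsd2 ΔIE. When the Nsd2 ΔIE shares of 6 width classes were weighted to the widths of the control list, 16.5% of the peaks covered a TSS, against the 17.5% measured there. The reverse weighting gave the control 13.5%, against 12.2% in Nsd2 ΔIE. This weighting was chosen after seeing the data. The share was higher in the control in 5 of 6 width classes. The intervals of the 2 libraries were apart only in the class of 3 to 4 kb. There the share was 13.0% (12.1% to 14.0%) in the control and 11.1% (10.5% to 11.8%) in Nsd2 ΔIE. Strong peaks covered a TSS more often as well, in 26.9% of the strongest 25% and 12.8% of the weakest 25% of the control list, and in 18.6% and 9.13% in Nsd2 ΔIE.

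The peaks over a TSS were not centred on it but leaned into the gene. Their median length downstream of the TSS was 2863.5 bp in the control and 2053 bp in Nsd2 ΔIE, and upstream of it 2221 bp and 1647 bp. The longer arm pointed into the gene in 57.2% of the control peaks (55.6% to 58.8%) and in 55.0% of the Nsd2 ΔIE peaks (53.2% to 56.8%). The block of maximum signal, which the lists give for every peak, lay downstream of the TSS in 55.6% and 55.5%. This block was short, with a median of 20 bp and 19 bp, and contained the TSS in 4.04% (3.44% to 4.75%) and 4.41% (3.72% to 5.23%) of the peaks, which its length limits. Its centre was within 500 bp of the TSS in 18.8% of the control and 25.8% of the Nsd2 ΔIE peaks, a window that takes up more of the narrower Nsd2 ΔIE peaks, so that nothing about the maxima themselves is read from this difference. Whole transcripts fitted inside 19.8% and 16.3% of the peaks over a TSS, and 610 of 689 and 448 of 470 of these transcripts were at most 5 kb long.

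**Figure D2:**
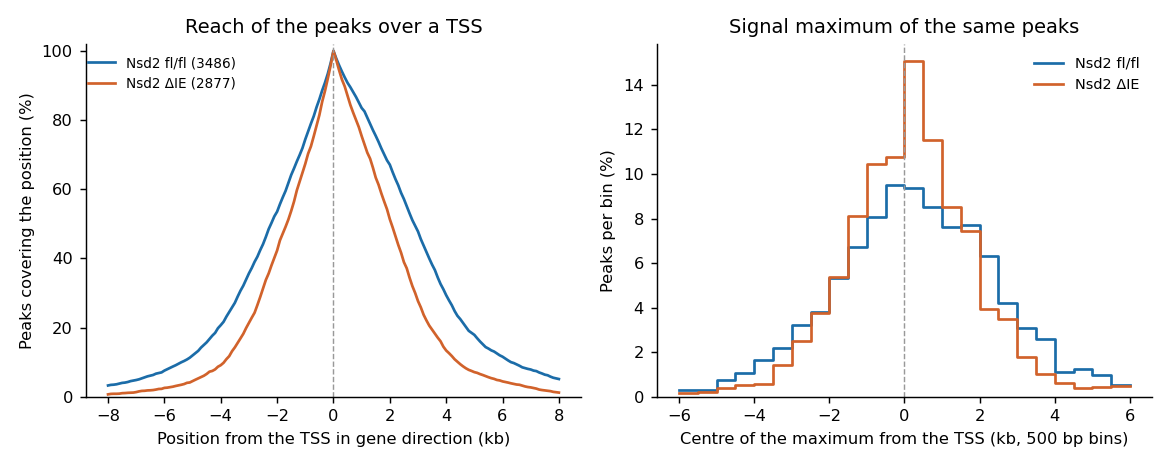
Left, the share of peaks over a TSS (%, y axis) that also cover each position from 8 kb upstream to 8 kb downstream of it in the direction of the gene (x axis), for 3486 Nsd2 fl/fl and 2877 Nsd2 ΔIE peaks. Right, the share of the same peaks (%) whose signal maximum is centred in each 500 bp bin; both curves reach further downstream than upstream, and 25.8% of the maxima in the narrower Nsd2 ΔIE peaks and 18.8% of those in Nsd2 fl/fl are within 500 bp of the TSS.

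Peaks beside a TSS also favoured the gene side. Of 1157 such peaks in the control, 711 began downstream of the TSS, a share of 61.5% (58.6% to 64.2%), and 446 ended upstream. In Nsd2 ΔIE, 851 of 1480 lay downstream, or 57.5% (55.0% to 60.0%), and 629 upstream. The gap between peak and TSS was spread over the whole kilobase, as 29.3% of the downstream peaks of the control stood 1 to 250 bp away and 20.4% stood 751 to 1000 bp away, with 29.4% and 22.7% in Nsd2 ΔIE. Peaks 901 to 1000 bp from a TSS had a median width of 4446 bp in the control and 3281 bp in Nsd2 ΔIE, and the promoter peaks just outside, at 1001 to 1100 bp, had 4763 bp and 3469 bp. Of the peaks inside the limit 47.1% in the control and 38.0% in Nsd2 ΔIE overlapped a peak of the other library, and of those just outside 47.8% and 48.8%, with 104 and 150 peaks inside and 92 and 125 outside.

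Peaks over a TSS were the widest, which the rule of distance 0 favours, since a wide peak reaches a given point more often. Their median width was 5101 bp (quartiles 4172 to 6734 bp) in the control and 3757 bp (3088 to 4816 bp) in Nsd2 ΔIE. Peaks beside a TSS measured 4587 bp and 3471.5 bp, close to the 4578 bp and 3383 bp of all peaks farther away. Divided by width, the summed signal had medians of 6.20 per bp over a TSS, 6.35 beside one and 6.12 elsewhere in the control, and of 6.30, 6.50 and 6.31 in Nsd2 ΔIE. Among these groups the median was highest beside a TSS in both lists, but this was not particular to such peaks. Promoter peaks at 1001 to 1100 bp had medians of 6.48 per bp in the control and 6.53 in Nsd2 ΔIE. Means had the other order, at 6.94 over and 6.50 beside a TSS in the control and 7.02 and 6.70 in Nsd2 ΔIE. The means over a TSS include the mitochondrial peaks of ND1 and CYTB. These had 1152 and 535 per bp in the control and 812 and 345 in Nsd2 ΔIE, so no order is read from the means. Signal of the 2 libraries is given side by side without a comparison, since no scaling to depth is stated and each list began at its own lowest summed signal, 21783 in the control and 16571 in Nsd2 ΔIE.

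Peaks near a TSS recurred in the other library more often than the pooled peaks elsewhere. Counting an overlap of at least 1 bp, 34.1% of all control peaks and 30.7% of all Nsd2 ΔIE peaks had a counterpart. For peaks over a TSS the shares were 42.2% (40.5% to 43.8%) and 38.3% (36.5% to 40.1%). For peaks beside a TSS they were 41.2% (38.4% to 44.1%) and 39.9% (37.4% to 42.4%), within each other's intervals. With a counterpart that itself lay within 1 kb of a TSS they differed, at 32.1% (30.5% to 33.6%) over and 22.8% (20.5% to 25.3%) beside a TSS in the control and 34.3% (32.6% to 36.03%) and 29.5% (27.3% to 31.9%) in Nsd2 ΔIE. All peaks more than 1 kb away overlapped in 31.7% and 28.8%. The higher share was not a mark of the class alone, since the promoter peaks just outside it, at 1001 to 1100 bp, had 47.8% and 48.8%, as given above. In Nsd2 ΔIE the downstream peaks beside a TSS recurred in 44.2% (40.9% to 47.5%) and the upstream ones in 34.0% (30.4% to 37.8%), while in the control these shares were 42.1% and 39.9% with overlapping intervals.

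The difference from other peaks had the same direction at every width. In 12 of 12 comparisons, 6 width classes in each library, the peaks within 1 kb recurred more often than the others, by 3.98 to 12.1 percentage points. In the classes of 7 to 10 kb and over 10 kb, the intervals of both groups overlapped in each library. The difference was present at every strength too. In the strongest 25% of the control list, 61.2% of the peaks within 1 kb and 52.8% of the others had a counterpart, and in the weakest 25% 25.7% and 20.9%. The corresponding shares in Nsd2 ΔIE were 54.9% and 47.0%, and 25.7% and 19.6%.

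**Figure D3:**
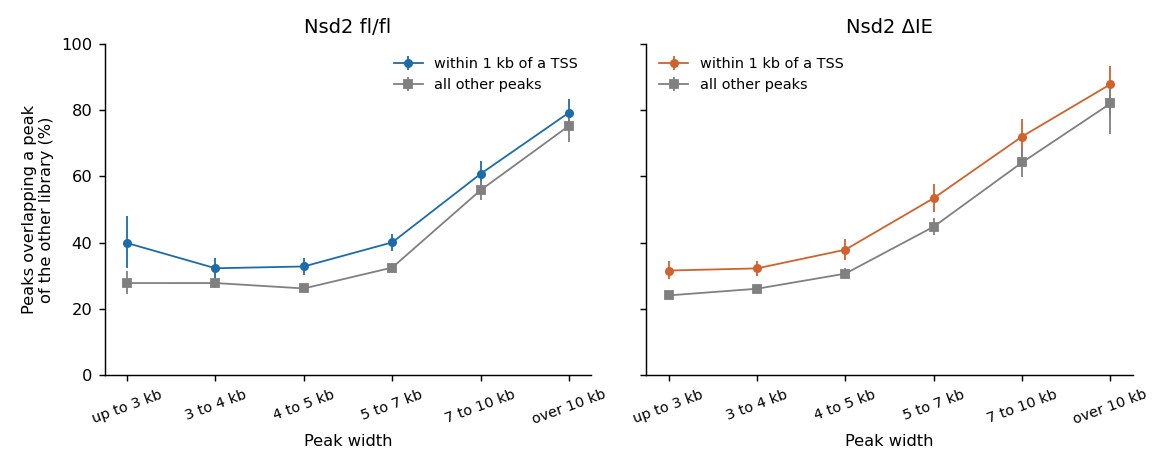
Share of peaks that overlap a peak of the other library by at least 1 bp (%, y axis) in 6 classes of peak width (x axis), for peaks within 1 kb of a TSS and for all other peaks, with 95% Wilson intervals. In both libraries the coloured points lie above the grey ones in each class. In Nsd2 fl/fl the share within 1 kb was 39.9% in the narrowest class and 32.2% in the next.

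A peak that overlaps need not cover the same TSS. Of the 3486 TSSs under a control peak, 685 were also under an Nsd2 ΔIE peak, 333 had one 1 to 1000 bp away and 1161 had one 1 to 10 kb away. No Nsd2 ΔIE peak lay within 10 kb of the other 1307, which is 37.5% (35.9% to 39.1%). In the reverse direction 744 of 2877 TSSs, or 25.9% (24.3% to 27.5%), were covered in the control too, and 39.9% (38.2% to 41.7%) had no control peak within 10 kb. TSSs with a peak beside them were covered in the other library in 13.6% and 22.2%.

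**Figure D4:**
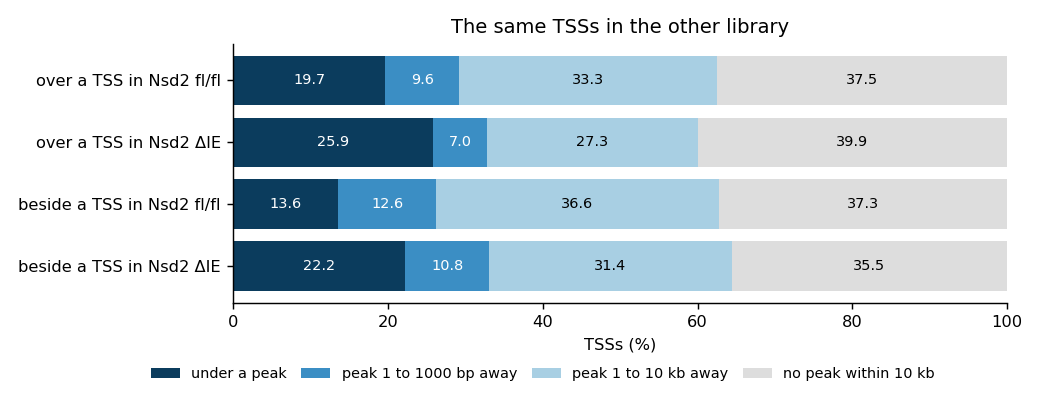
For the TSSs that have a peak over or beside them in one library (rows), the share (%, x axis) that in the other library lie under a peak, have one 1 to 1000 bp or 1 to 10 kb away, or have none within 10 kb. The last group holds 37.5% of the TSSs covered in Nsd2 fl/fl and 39.9% of those covered in Nsd2 ΔIE.

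Where the same annotated TSS was covered in both libraries, the Nsd2 ΔIE peak was usually narrower. This was so for 470 of 657 TSSs, or 71.5%. The median width was 5352 bp in the control and 4096 bp in Nsd2 ΔIE, a median log2 ratio of -0.41 (quartiles -0.89 to 0.07). Both arms were shorter, the upstream one at 1947 bp against 2444 bp and the downstream one at 2192 bp against 2971 bp. Narrowing was not particular to promoters, because 3991 pairs of overlapping peaks more than 1 kb from any TSS had the same median log2 ratio of -0.41, with 74.2% narrower. The signal maxima of the 2 libraries were a median of 1514.5 bp apart at these TSSs, and 140 of 657 (21.3%) lay within 500 bp of each other.

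The peaks within 1 kb of a TSS were annotated to 4370 genes in the control and 4054 in Nsd2 ΔIE. Of those found in the RefSeq gene table, 65.7% and 63.9% were protein-coding, against 53.7% and 53.4% for the genes of all other peaks. Long noncoding RNA genes made up 25.2% and 26.5%, against 32.3% and 32.5% elsewhere, and microRNA genes 4.15% and 4.34%, against 2.25% and 2.21%. A TSS in such a peak can belong to a gene that shares its start region with a neighbour, and each peak was annotated to 1 gene only. Of the 7029 genes with a peak within 1 kb in either library, 1395 had one in both, which is 31.9% of the control genes and 34.4% of the Nsd2 ΔIE genes. Of the 2975 genes found only in the control, 1435 (48.2%) had a peak farther from a TSS in Nsd2 ΔIE, and of the 2659 found only in Nsd2 ΔIE, 1087 (40.9%) had one in the control.

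The length a gene had in peaks within 1 kb was lower in Nsd2 ΔIE for 3613 genes, higher for 2837 and similar for 579. Lower and higher mean a log2 ratio below -0.5 or above 0.5, or a peak in 1 library only. Lower length made up 51.4% of the 7029 genes. Counted over any peak of a gene, 43.3% of the genes were lower and 39.7% higher, which is the background for these counts. Among the 1395 genes with a peak within 1 kb in both libraries, 638 were lower and 178 higher, with a median log2 ratio of -0.42, and after centring on that median they were 366 and 372. Once the general shift was removed, the split was even, as centring on the median of these genes requires.

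No gene list was tested. Of the protein-coding genes, 12.8% had a peak within 1 kb in the control and 11.6% in Nsd2 ΔIE, as above, and 9.85% and 7.77% had one over a TSS. Of the intestinal epithelial transcription factors, 7 of 18 had one within 1 kb in the control and 4 of 18 in Nsd2 ΔIE. At Cdx1, a homeobox factor of the intestine, a peak of 10071 bp covered the TSS in the control and one of 3542 bp did in Nsd2 ΔIE, and the 2 overlapped. Ascl2 went the other way, from 3908 bp in the control, at rank 19168 of 19976, to 7266 bp in Nsd2 ΔIE, at rank 500 of 23518. Spdef, a factor of secretory cells, and Gata6 had peaks of 4964 bp and 3690 bp over their TSSs in the control, and in Nsd2 ΔIE the nearest peaks were 5692 bp and 11623 bp from these TSSs.

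Of the genes that write, erase and read the mark, 4 of 16 in the control and 5 of 16 in Nsd2 ΔIE had a peak within 1 kb. These were 7 genes, of which 2, Kdm2b and Dnmt3a, had one in both libraries. Kdm2b had a peak over a TSS in the control (3423 bp) and in Nsd2 ΔIE 1 over another TSS (2882 bp) and 1 beside a further TSS (5703 bp, 56 bp away), none of which overlapped. Dnmt3a likewise had 1 peak over a TSS in the control (4533 bp) and 2 over other TSSs in Nsd2 ΔIE (6762 bp and 3037 bp). Dnmt3b, a second DNA methyltransferase, was covered over 6775 bp in the control, and the nearest Nsd2 ΔIE peak was 33811 bp from its TSS. Nsd3 was covered in the control alone (4453 bp) and Nsd1 in Nsd2 ΔIE alone (3044 bp), both near the middle of their list, at rank 8968 of 19976 and rank 13367 of 23518.

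Epithelial markers were led by Vil1. Its peaks of 13184 bp in the control and 13479 bp in Nsd2 ΔIE ranked 6 in both lists. They reached 7330 bp and 7567 bp upstream of the TSS. Their signal was outlying, at 64.9 and 76.8 per bp, or 10.6 and 12.2 times the median of their list, and whether all of it comes from the mark cannot be told. Muc2, the main secreted mucin of the colon, was covered over 9018 bp in the control. That peak overlapped one of Nsd2 ΔIE, where the nearest peak stood 1813 bp from the TSS. Car4, a carbonic anhydrase of surface colonocytes, had a peak of 4292 bp in Nsd2 ΔIE only. Krt19 and Tff3 had peaks beside their TSSs, 589 bp downstream in the control and 672 bp upstream in Nsd2 ΔIE. Among claudins and other tight junction proteins, Cldn4 (5971 bp) and Marveld2 (4051 bp) were covered in the control, and Cldn15 (8009 bp, rank 379 of 23518) in Nsd2 ΔIE, where Cldn1 and Tjp3 had peaks beside the TSS. The Cldn15 peak overlapped a control peak, and the nearest control peak stood 1795 bp from its TSS. The nearest Nsd2 ΔIE peaks were 84338 bp from the TSS of Cldn4 and 12737 bp from that of Marveld2.

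Markers of other colon cells also had peaks at their TSSs. Cnn1, a protein of smooth muscle, was covered over 9872 bp in the control, by a peak that overlapped one of Nsd2 ΔIE. The nearest Nsd2 ΔIE peak was 1253 bp from the TSS. Myh11, the smooth muscle myosin, was covered in both libraries, over 5083 bp and 4690 bp, as was Cdh5, a cadherin of endothelium, over 5792 bp and 2720 bp. Pdgfrb, a receptor of mesenchymal cells, was covered in the control over 4489 bp. That peak overlapped one of Nsd2 ΔIE, where the nearest peak stood 1045 bp from the TSS. Among immune markers, the myeloid factor Spi1 was covered in the control (5067 bp) and Itgax (2884 bp) in Nsd2 ΔIE. Villin-Cre is not active in these cells, and their share of the tissue was not tested.

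Lipid genes had peaks within 1 kb at 3 of 19 members in the control and 4 of 19 in Nsd2 ΔIE. Srebf1, which encodes the lipid synthesis factor SREBP1, had 3 peaks over annotated TSSs in Nsd2 ΔIE, of 7834 bp, 4595 bp and 3873 bp. No control peak within 1 kb was annotated to Srebf1, but the TSSs under the 4595 bp and 3873 bp peaks also lay under 1 control peak, which was annotated to the microRNA gene Mir6921. Dgat1, an enzyme of triglyceride synthesis, was covered in both, over 5352 bp and 2447 bp. Npc1l1, the cholesterol transporter, was covered in the control over 3288 bp and Abcg5, a sterol exporter, in Nsd2 ΔIE over 4085 bp. A peak stood 449 bp from the TSS of the desaturase gene Scd1 in Nsd2 ΔIE. Of the cytokine list, Rela (6835 bp) and Cxcl1 (4213 bp) were covered in the control and Tgfb1 (2590 bp) in Nsd2 ΔIE.

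The stress genes of interest to the study had few peaks near a TSS, on lists too short to set apart from the 12.8% and 11.6% of all protein-coding genes. Of 15 ER stress genes, Herpud1, a component of ER-associated degradation, had the only peak within 1 kb, of 4805 bp and 198 bp downstream of the TSS, in the control. Ern1, which encodes the ER stress sensor IRE1α, had no peak within 1 kb in either library, and 1 peak farther away in the control and 0 in Nsd2 ΔIE. Of 10 JNK pathway genes, Mapk8 had the only one, of 4930 bp and 955 bp upstream, in Nsd2 ΔIE. Ribosomal protein genes, which have active promoters in all cells, had 1 of 30 in each library, which in Nsd2 ΔIE was Rpl8. Hox genes had 4 of 39 in the control and 2 of 39 in Nsd2 ΔIE, with Hoxa10 in both, covered in the first over 4379 bp and 116 bp from a peak of 3501 bp in the second.

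The strongest regions over a TSS that both libraries held had nearly the same edges in both. Leaving out predicted genes, the 5 highest by signal per bp were the mitochondrial genes ND1 and CYTB, Sfi1, Vil1 and Mroh2a. ND1 had 1152 per bp in the control and 812 in Nsd2 ΔIE, far above the list medians of 6.14 and 6.32, although mitochondrial DNA carries no histones. Sfi1, a centrosome gene, had 121 and 110 per bp over 16456 bp and 16801 bp, and Mroh2a had 29.6 and 28.8 over 53769 bp and 53527 bp, the widest peaks of their class. Hjurp, a histone chaperone gene on chromosome 1, had the strongest peak beside a TSS by summed signal in both, at rank 9, with 23.1 and 19.2 per bp. No library made without the antibody was analysed here, so that signal at these places that does not come from the mark cannot be told apart from the mark.

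Other strong peaks over a TSS overlapped no peak of the other library. In the control, the 5 strongest without any overlapping Nsd2 ΔIE peak belonged to Pak4 (21115 bp, rank 37), Ace (15240 bp, rank 57), Spns2 (15785 bp, rank 84), Mir705 (17041 bp, rank 106) and Ccr10 (15688 bp, rank 156). Pak4 is a kinase, Ace the angiotensin-converting enzyme, Spns2 a sphingosine-1-phosphate exporter and Ccr10 a chemokine receptor. In Nsd2 ΔIE the corresponding peaks included those of Pfkfb4 (14233 bp, rank 61), an enzyme that regulates glycolysis, Mpped1 (12446 bp, rank 65), the phospholipase gene Pla2g2f (9783 bp, rank 138) and the cadherin gene Cdh22 (10384 bp, rank 146), of which another TSS was covered in the control. The 10 peaks, 5 per library, had between 0.953 and 1.28 times the median signal per bp of their list.

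Among genes covered at a TSS in both libraries, the largest changes of length, summed over the covered TSSs of a gene, mostly set broad against narrow coverage. The length over a TSS was lower in Nsd2 ΔIE at Cbfa2t3, a transcriptional corepressor, with 28171 bp in the control and 2268 bp in Nsd2 ΔIE, at the gastric-type mucin Muc6, with 16743 bp and 1932 bp, and at Ccn4, a secreted matrix protein, with 18546 bp and 2286 bp. Ano1, a chloride channel, followed with 20689 bp and 3065 bp, and Stra6, a vitamin A receptor, with 19028 bp and 2826 bp. It was higher in Nsd2 ΔIE at Dgkz, a diacylglycerol kinase, with 2515 bp and 16166 bp, at Spata20 with 2791 bp and 15440 bp, at Zswim4 with 3479 bp and 16313 bp, at Trmt61a with 3518 bp and 15186 bp, and at Aspg with 3466 bp and 14762 bp. In each of these genes the shorter peak overlapped a longer one of the other library. At Cbfa2t3, Muc6, Stra6 and Ano1 the control length was that of several peaks over different TSSs. At the TSS covered in both libraries, the control and Nsd2 ΔIE peaks measured 3805 bp and 1932 bp at Muc6 and 6029 bp and 3065 bp at Ano1. They measured 18866 bp and 2268 bp at Cbfa2t3 and 14321 bp and 2826 bp at Stra6. Not every change was as large over the whole gene. Over any peak of the gene, the log2 ratio went from -3.63 to -1.36 at Cbfa2t3, from -3.12 to -0.84 at Muc6 and from 2.68 to 0.71 at Dgkz, and stayed at 2.11 at Trmt61a.

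Promoters under a peak were less rich in CpG than promoters beside one. The measure is the CpG ratio, the number of CG dinucleotides in the 300 bases around the start over the number that the content of C and G would give. Over all genes with a single promoter entry, its median was 0.48 for genes with a peak over a TSS in the control, 0.54 for those with a peak beside a TSS only and 0.34 for genes with no peak at all. In Nsd2 ΔIE the medians were 0.39, 0.55 and 0.34. Over all genes, 41.0% (38.7% to 43.3%) over a TSS and 46.5% (42.4% to 50.6%) beside one were above 0.6 in the control, with overlapping intervals. In Nsd2 ΔIE these shares were 34.9% (32.4% to 37.4%) and 45.9% (42.3% to 49.5%). Among protein-coding genes, the share of promoters with a ratio above 0.6 was 52.1% (49.4% to 54.9%) for peaks over a TSS and 60.5% (55.6% to 65.2%) for peaks beside one in the control, and 46.8% (43.7% to 50.05%) and 60.3% (56.0% to 64.4%) in Nsd2 ΔIE. For upstream peaks beside a TSS alone, the share was 57.6% (49.0% to 65.7%) in the control, which overlaps that over a TSS. In Nsd2 ΔIE it was 56.9% (50.1% to 63.4%). Genes whose peaks all lay farther than 1 kb from a TSS had 62.6% and 60.7%, near those beside a TSS, and genes without a peak had 42.5% and 42.6%.

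Of the 294 promoters of genes covered in both libraries, which are among those counted for each, 47.6% (42.0% to 53.3%) were above 0.6. Over all 14731 protein-coding genes with a single promoter entry the share was 47.2%, near this value and near the 46.8% over a TSS in Nsd2 ΔIE. Only 42.1% of the control and 41.8% of the Nsd2 ΔIE peaks within 1 kb were annotated to a transcript as long as the gene in the RefSeq table, so that for many genes the peak may lie at another start than the promoter measured. With such transcripts alone the contrast among protein-coding genes was wider in both libraries, in the shares and in the medians. The protein-coding medians were then 0.54 over and 0.71 beside a TSS in the control and 0.42 and 0.68 in Nsd2 ΔIE. In the medians over all genes, the contrast was wider in the control but not in Nsd2 ΔIE. These medians over all genes were 0.37 over and 0.50 beside a TSS in the control and 0.31 and 0.44 in Nsd2 ΔIE. Among protein-coding genes, the shares above 0.6 were then 44.9% (40.6% to 49.3%) over a TSS and 62.7% (55.0% to 69.8%) beside one in the control. In Nsd2 ΔIE they were 37.5% (32.7% to 42.6%) and 58.7% (51.9% to 65.2%). Of the sequences above, those of Vil1 (0.18), Cldn15 (0.25) and Cldn4 (0.32) have low ratios, and those of Wfs1 (0.82) and Cldn1 (0.64), beside which a peak stopped in 1 library, high ones. Ascl2 (0.68) and Trmt61a (1.04) in both libraries, and Wfs1 in Nsd2 ΔIE, show that CpG-rich promoters also lay under peaks.

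**Figure D5:**
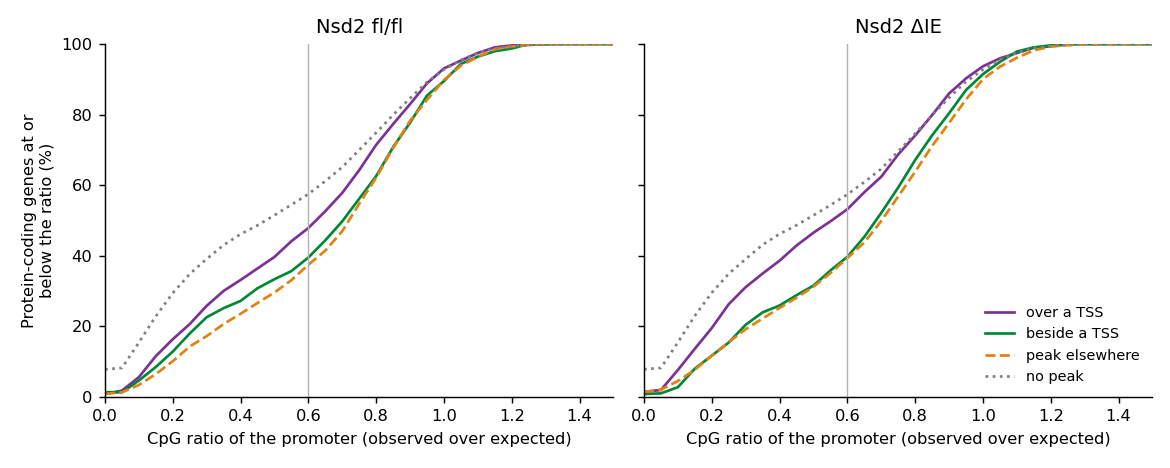
Cumulative share of protein-coding genes (%, y axis) at or below each CpG ratio of the promoter (x axis, 300 bases, grey line at 0.6), by where the gene's peaks lay in each library. Over most of the range the curve for genes with a peak over a TSS lies above, that is at lower ratios than, the curves for genes with a peak beside a TSS or only farther away, and below the curve for genes without a peak over most of the range up to 0.6.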

How the data were processed

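H3K36me2 CUT&Tag of colon was analysed, 1 library per genotype. The submitters' processing notes name Bowtie2, SEACR, deepTools and ChIPseeker, without versions or roles. They name hg38 as the build, which cannot be that of a mouse list. The lists' coordinates differ from those of GRCm38.p6, so no position was carried between them. The authors called peaks in each library and deposited for each peak its position, its summed signal, a block of maximum signal, the nearest transcript and the distance to its TSS. No depth scaling is stated and the depth is unknown.

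Shares, 95% Wilson intervals, overlaps of at least 1 bp and widths were computed with Python 3.11.15, pandas 2.3.3, numpy 2.4.6 and scipy 1.17.1, and tested on simulated lists. CpG ratios used RefSeq promoters (250 bases before to 50 after the start) of genes with 1 entry, 22862 of 27025. A gene with several kinds of peak was put in the first of over, beside and elsewhere.

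Members, gene lists and tests were chosen with earlier results of these data known. Named were Nsd2, Ern1, Mapk8 and Vil1, up to 4 genes per list by signal rank, the 5 densest peaks shared over a TSS, the 3 widest per library, the 5 largest falls and rises of length over a TSS, the 5 strongest unshared peaks per library and the 3 strongest beside a TSS per library, without predicted genes. Not every one is described. Some genes that the rule names are not reported here. Beyond the rule, Nsd1, Tff3, Tjp3, Npc1l1, Scd1, Mir6921 and the members named as lacking a peak were chosen after their values were seen.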

Additional observations from a re-analysis of the deposited data

How the results depend on the processing

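The control is the Nsd2 fl/fl library. Each list is 1 library of unknown depth, so that a region without a peak cannot be told from one below the lowest summed signal of its list, and no difference between the libraries was tested. No paired analysis was possible because there is only 1 library of each genotype. Alternatives gave 181 values, of which 140 lay within the Wilson interval, the quartiles or 1.5 times the count of the value reported and 41 did not. The medians of width, signal per bp, GC and CpG ratio were all among the 140, but the quartiles are those of single peaks or genes and leave room for large moves. In the strongest 50% the median width over a TSS was 6150 bp in the control and 4457 bp in Nsd2 ΔIE. For protein-coding genes alone the median CpG ratio was 0.62 over a TSS, 0.70 beside one and 0.47 without a peak in the control, and 0.56, 0.69 and 0.47 in Nsd2 ΔIE. The weighting to the other list's widths and the restriction to transcripts as long as the gene were chosen after seeing the data.

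The share of peaks within 1 kb was 27.6% in the control and 22.0% in Nsd2 ΔIE in the strongest 50% of each list, 25.9% and 20.5% of the called length, and 19.2% in Nsd2 ΔIE with equal numbers of peaks. Of these peaks, 77.7% and 68.6% covered the TSS in the strongest 50%, and 57.7% and 45.2% held it at least 500 bp inside both edges. The upstream share of the Nsd2 ΔIE peaks beside a TSS was 39.3% in the strongest 50%. The share of all peaks over a TSS, weighted to the widths of the other list, was 13.5% in the control and 16.5% in Nsd2 ΔIE.

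The overlap with the other library fell most under a reciprocal overlap of 50%, to 18.1% over and 21.0% beside a TSS in the control and to 18.7% and 18.04% in Nsd2 ΔIE. With the counterpart also within 1 kb of a TSS it was 32.1%, 22.8%, 34.3% and 29.5% in the same order, and with equal numbers of peaks 38.9%, 38.1%, 40.2% and 42.4%. In the strongest 50% it was 38.4% over a TSS in the control and 34.9% over and 36.4% beside one in Nsd2 ΔIE.

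Over any peak, 7884 genes had less, 7223 more and 3080 similar length, and among genes with a peak within 1 kb in both libraries 638 had less and 178 more. Similar length held for 1004 genes with a log2 limit of 1 and for 328 with distance 0 only. At distance 0 only, list members fell to 0 for ER stress in the control, and in Nsd2 ΔIE to 0 for the JNK pathway, 2 for epithelial transcription factors, 1 for tight junctions and 1 for Hox genes. With equal numbers of peaks, Nsd2 ΔIE had 0 immune and 1 stromal marker. More genes had less than more length in every one of these settings. Centring moved only the 1395 genes with a peak in both libraries, which were then split into 366 with less and 372 with more, and the totals of 3341 and 3031 differ through genes with a peak in 1 library only.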

Other observations

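Most genes had a single peak within 1 kb of a TSS, 4138 of 4370 in the Nsd2 fl/fl library and 3804 of 4054 in Nsd2 ΔIE. The most peaks of 1 gene were 5, which only Sema4d, a semaphorin, reached in Nsd2 fl/fl and which 5 genes reached in Nsd2 ΔIE, Coro2b, Dab2ip, Iqsec1, Kcnt1 and Rgs3. Over annotated TSSs the most were 4, at the phospholipase gene Plch2 in Nsd2 fl/fl and at Plec, the cytoskeletal linker plectin, Rgs3 and Tiam1 in Nsd2 ΔIE. These genes were named after their values were seen. The transcripts of peaks over a TSS had a median length of 11565 bp and 10640 bp in the Nsd2 fl/fl and Nsd2 ΔIE lists, shorter than the 14963 bp and 14455 bp of peaks farther than 1 kb from a TSS.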
